A study of Mus musculus with 36 samples.

Results

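The cholesterol genes described here are 33 genes of synthesis, uptake, intracellular transfer, esterification and export, chosen by gene symbol. Of these, 27 had at least 1 probe on the array, by 36 probes in all, and all 27 passed the filter on low signal that left 10765 of 16593 genes. *Acat2*, *Mvk*, *Fdft1*, *Npc1*, *Soat1* and *Soat2* have no probe named for them in the tables used and were not analysed here, so no esterification gene was measured. RNA from livers of FVB/n mice was hybridised to 36 single-colour Illumina bead arrays in 10 groups, to ask how oncogenic drivers and an inflammatory liver shape the tumour. The reference is liver of mice given PBS (PBS_only, n = 3), and liver of mice given DDC alone (DDC_only, n = 3) is the second tumour-free group. Liver tumours driven by AKT and CAT were taken with no further agent (Tu_AKTCAT, n = 4), with DDC (Tu_AKTCAT_DDC, n = 4) and with CCl4 (Tu_AKTCAT_CCl4, n = 4). The non-tumoral liver of AKT-CAT animals was taken in the same 3 settings (NonTu_AKTCAT, n = 3; NonTu_AKTCAT_DDC, n = 3; NonTu_AKTCAT_CCl4, n = 4). Tumours driven by AKT and NRAS were taken without DDC (Tu_AKTNRAS, n = 4) and with it (Tu_AKTNRAS_DDC, n = 4); no AKT-NRAS non-tumoral liver and no AKT-NRAS tumour with CCl4 is among the 10 groups. DDC in liver work is usually the porphyrin-inducing agent that injures bile ducts, and CCl4 is carbon tetrachloride, which kills hepatocytes around the central vein. How the drivers were delivered, the cells they reached, and the age, sex, doses and durations are not given in the sources used here, and nothing states whether arrays of 1 group came from separate animals, so the p-values measure the spread between these samples.

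Cholesterol is built from acetyl-CoA through mevalonate and isoprenoid units to squalene, and from lanosterol through a chain of sterol intermediates. When sterol in the endoplasmic reticulum is low, SCAP escorts the transcription factor SREBP2, the product of *Srebf2*, to the Golgi, where it is cut and released to switch on genes of synthesis and uptake; INSIG proteins hold SCAP back when sterol is ample. Hepatocytes also remove cholesterol, by secreting it into bile through the paired transporters ABCG5 and ABCG8, by loading it onto lipoproteins through ABCA1 and by turning it into bile acids.

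Each array detected 10688 to 13101 of 25697 probes (detection p under 0.05), and the lowest correlation between a pair of arrays from the same group was 0.965. There were 5 slides, and slide and group overlap only in part: both AKT-NRAS groups share 1 slide and both CCl4 groups another, so for these groups against any other, slide and group cannot be told apart. Hepatocyte markers were strong in all 10 groups (9 of 10 tested, summed linear signal 69190 to 134900 per array), though *Tat* was undetected on every array of 7 groups and *Fgb* on every array of DDC_only and NonTu_AKTCAT_DDC. In whole tissue, fewer cells of a type and less RNA per cell cannot be told apart. Signals below are log2 of the normalised intensity of the gene's brightest probe, changes are log2 differences ± the standard error of a limma fit over all 36 arrays, and a gene was called at a Benjamini-Hochberg adjusted p under 0.05 over all 10765 genes.

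**Figure D1:**
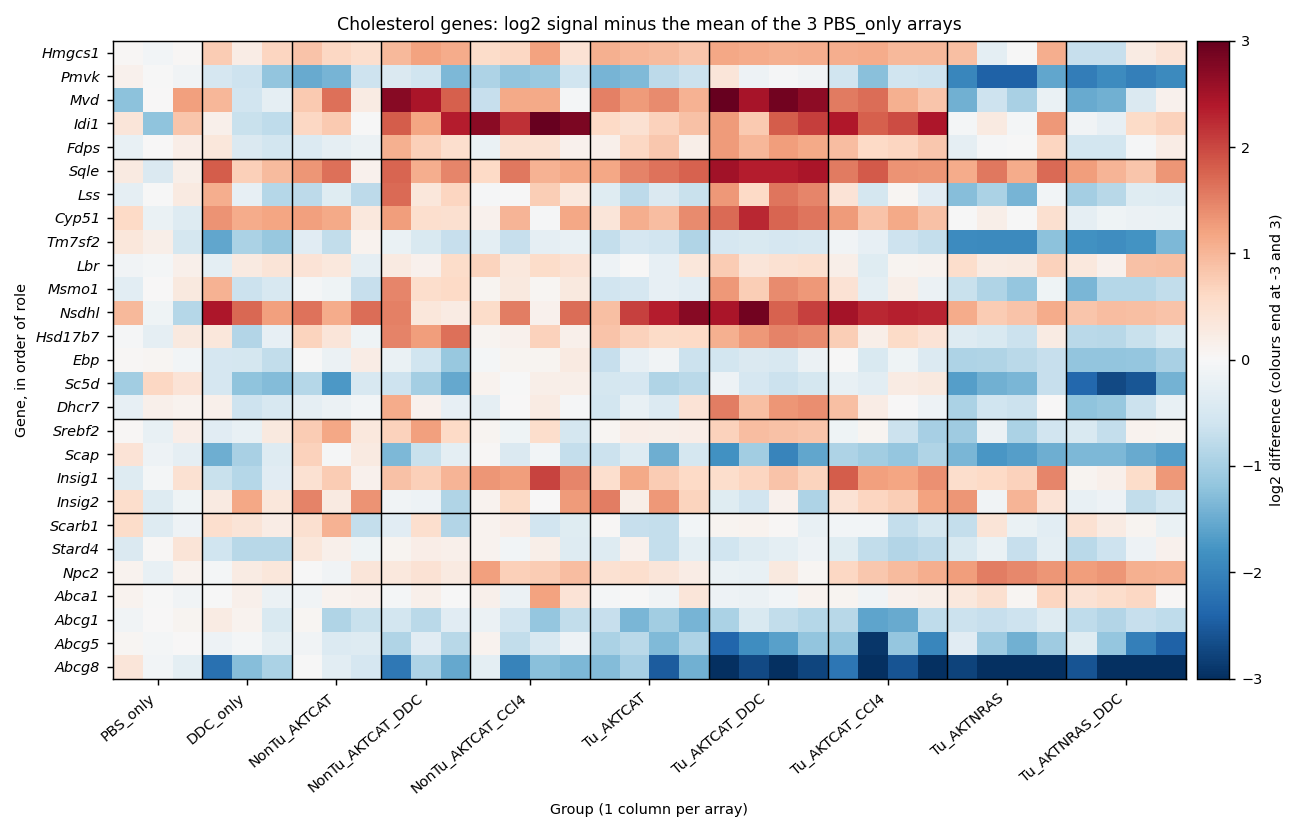
Log2 signal of each of the 27 measured genes (rows, in order of role) on each of the 36 arrays (columns, by group), minus the mean of the 3 PBS_only arrays; red is higher and blue lower, and colours end at -3 and 3. In both AKT-NRAS groups all 4 arrays are blue in the *Abcg8* row and red in the *Npc2* row.

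AKT-CAT tumours with DDC had higher signals of cholesterol synthesis enzymes than AKT-CAT tumours without it. Of 16 measured enzymes, 9 rose and none fell, all 16 changes were above 0, and their median was 0.77 against 0.02 over all genes tested. Among all 27 members 12 were called (44.4%), 9 higher and 3 lower, beside 13.3% of all genes (7.4% higher and 5.86% lower). *Lss*, lanosterol synthase, which closes squalene epoxide into the first sterol, gave 9.68, 9.27, 9.61 and 9.37 in the tumours without DDC and 11.35, 10.64, 11.66 and 11.52 with it. The groups did not overlap, and the rise was 1.81 ± 0.33 (adjusted p = 0.000472), a 3.5-fold difference. *Msmo1*, the methylsterol monooxygenase that starts removal of the methyl groups from lanosterol products, gave 11.23, 11.29, 11.54 and 11.49 against 13.09, 12.53, 13.21 and 13.11. Its rise was 1.60 ± 0.27 (adjusted p = 0.000262), again with every DDC tumour above every tumour without DDC.

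The remaining 7 enzymes that rose act before and after squalene. *Dhcr7*, which reduces 7-dehydrocholesterol to cholesterol in the last step of one branch, rose by 1.48 ± 0.27 (adjusted p = 0.000484), from 9.23, 9.55, 9.37 and 10.18 to 11.31, 10.67, 11.10 and 11.18. *Mvd*, the decarboxylase that makes isopentenyl diphosphate, gave 9.93, 9.69, 9.82 and 9.44 without DDC and 11.47, 10.88, 11.31 and 11.10 with it, a rise of 1.47 ± 0.44 (adjusted p = 0.0257). *Pmvk*, phosphomevalonate kinase, which acts just before *Mvd*, gave 8.28, 8.36, 8.90 and 9.05 against 10.05, 9.53, 9.65 and 9.58, a rise of 1.06 ± 0.23 (adjusted p = 0.00299). In all 3 enzymes the lowest DDC tumour lay above the highest tumour without DDC. *Sqle*, squalene epoxidase and a rate-limiting step after mevalonate, gave 11.42, 11.73, 11.88 and 12.02 against 12.76, 12.60, 12.60 and 12.71 and rose by 0.91 ± 0.26 (adjusted p = 0.0197). *Cyp51*, the lanosterol demethylase, gave 9.93, 10.65, 10.48 and 10.97 against 11.26, 11.80, 11.29 and 11.17, a rise of 0.87 ± 0.26 (adjusted p = 0.0223). Both enzymes again showed no overlap between the groups. *Fdps*, farnesyl diphosphate synthase, rose by 0.72 (adjusted p = 0.0228) and *Hsd17b7*, a sterol ketone reductase, by 0.64 (adjusted p = 0.0429). The 7 enzymes not called were *Hmgcs1* (0.15), *Idi1* (0.83), *Tm7sf2* (0.19), *Lbr* (0.53), *Nsdhl* (0.29), *Ebp* (0.01) and *Sc5d* (0.23).

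**Figure D2:**
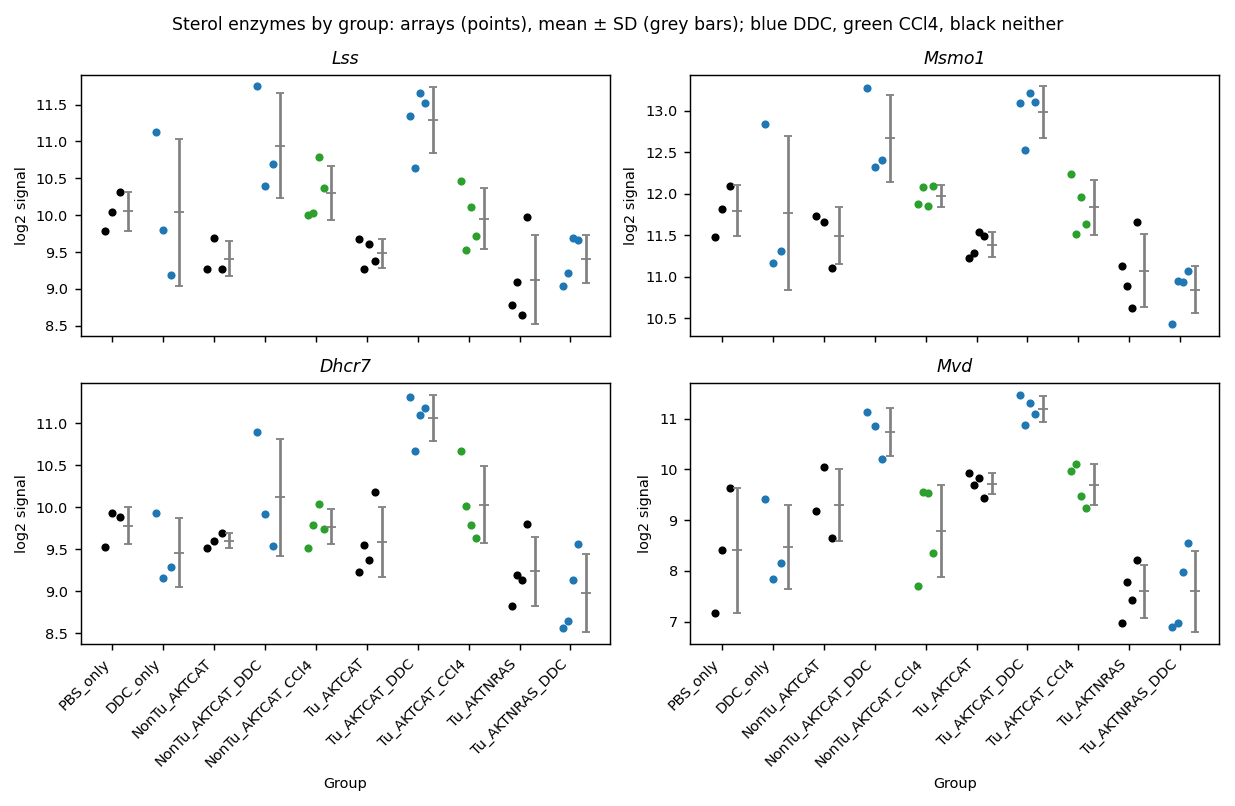
Log2 signal of *Lss*, *Msmo1*, *Dhcr7* and *Mvd* in each of the 10 groups; points are arrays (blue with DDC, green with CCl4, black with neither) and grey bars the mean ± SD. In all 4 panels the Tu_AKTCAT_DDC arrays lie above every Tu_AKTCAT array and every array of both AKT-NRAS groups.

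These 2 tumour groups lie on 3 slides, with 2 DDC tumours and 3 tumours without DDC together on 1 of them. With slide as a block all 16 enzymes stayed above 0 (median 0.81), but 4 of the 12 calls held: *Lss* at 2.07 ± 0.43 (adjusted p = 0.00754), *Msmo1* at 1.81 ± 0.36 (adjusted p = 0.00559), *Dhcr7* at 1.75 ± 0.34 (adjusted p = 0.00443) and *Pmvk* at 1.10 ± 0.30 (adjusted p = 0.0435). Only the shared slide holds both groups, so a fit of its 5 arrays gives the same estimates by construction and is no second check. That fit made no call. Scaling each array to its median in place of quantile normalisation moved the all-gene median of this comparison to 0.24 and its split from 797 higher and 631 lower genes to 2094 and 220; 15 of 16 enzymes lay above that shifted median, by a median of 0.87. Without Tu_AKTCAT_DDC replicate 1, 6 of the 27 members were called.

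Among the sensing, uptake and export genes of the same tumours, 3 fell and none rose. *Insig2*, which retains SCAP in the endoplasmic reticulum, fell with DDC by 1.36 ± 0.34 (adjusted p = 0.00775), from 12.45, 11.09, 12.20 and 11.59 to 10.54, 10.33, 11.03 and 9.98, with no overlap. *Scap* itself gave 8.79, 9.06, 7.97 and 8.91 against 7.62, 8.40, 7.44 and 7.89 and fell by 0.85 ± 0.25 (adjusted p = 0.0228), with overlapping groups. *Abcg8*, which with *Abcg5* forms the canalicular sterol exporter, gave 10.39, 10.68, 9.18 and 10.23 against 7.49, 8.97, 8.68 and 8.93 and fell by 1.60 ± 0.43 (adjusted p = 0.0126). *Abcg5*, its partner, gave 11.23, 11.38, 10.86 and 11.26 against 9.81, 10.33, 10.56 and 11.01; the difference was -0.76 ± 0.34 (adjusted p = 0.14) and was not called. *Srebf2* gave 8.51, 8.63, 8.63 and 8.66 against 9.15, 9.38, 9.32 and 9.27, a difference of 0.67 ± 0.24 (adjusted p = 0.0602) that missed the threshold although the groups did not overlap. *Insig1*, usually a target of SREBP2 itself, stood at 10.79, 11.43, 11.05 and 10.88 and 10.83, 10.93, 11.14 and 10.96, a difference of -0.08 ± 0.24 (adjusted p = 0.875). With slide as a block *Insig2* (-1.40 ± 0.45 (adjusted p = 0.0803)), *Scap* and *Abcg8* were no longer called. Markers of other cell types also moved between these groups. Of macrophage markers 3 of 7 fell and of sinusoidal endothelial markers 3 of 8, and their summed linear signals were 2756 to 5000 and 3611 to 9167 without DDC against 1392 to 1871 and 599.4 to 1869 with it, *Marco* and Kdr being undetected with DDC. Of stellate cell and fibroblast markers 3 of 10 fell and 1 rose (6274 to 8493 against 2419 to 5784, Col1a2 undetected with DDC), and 2 of 9 hepatocyte markers fell (97210 to 119600 against 93860 to 98570). Their part in the enzyme and transporter changes was not tested.

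Because *Lss*, *Msmo1* and *Mvd* were among the 4 enzymes with the largest rises, and *Abcg8* fell, the bases around their start sites are shown, with *Hmgcs1* as the member that holds both motifs searched. RefSeq (GRCm38.p6) gives a window of 300 bases, 250 before and 50 after the start site, for 25 of the 33 members. The motifs, searched on both strands, were CCAAT, the core bound by NF-Y, and TCACNCCAC, a sterol regulatory element of the type SREBP proteins bind; capitals mark matches on either strand, and each sequence runs 5′ to 3′ along its gene.
Hmgcs1, chr13:119690101-119690400, plus strand: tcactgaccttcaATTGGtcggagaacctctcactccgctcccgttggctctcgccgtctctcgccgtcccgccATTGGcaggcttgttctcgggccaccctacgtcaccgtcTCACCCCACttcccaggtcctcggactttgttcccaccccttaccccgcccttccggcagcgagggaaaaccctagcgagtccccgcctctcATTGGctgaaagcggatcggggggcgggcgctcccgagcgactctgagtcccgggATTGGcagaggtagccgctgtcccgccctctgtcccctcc
Lss, chr10:76531355-76531654, plus strand: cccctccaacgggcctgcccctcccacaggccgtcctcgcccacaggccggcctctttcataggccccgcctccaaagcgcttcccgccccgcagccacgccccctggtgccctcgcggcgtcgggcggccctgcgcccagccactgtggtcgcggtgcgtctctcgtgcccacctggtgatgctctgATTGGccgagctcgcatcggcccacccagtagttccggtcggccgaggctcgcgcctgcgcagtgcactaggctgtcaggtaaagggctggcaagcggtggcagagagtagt
Msmo1, chr8:64733529-64733828, minus strand: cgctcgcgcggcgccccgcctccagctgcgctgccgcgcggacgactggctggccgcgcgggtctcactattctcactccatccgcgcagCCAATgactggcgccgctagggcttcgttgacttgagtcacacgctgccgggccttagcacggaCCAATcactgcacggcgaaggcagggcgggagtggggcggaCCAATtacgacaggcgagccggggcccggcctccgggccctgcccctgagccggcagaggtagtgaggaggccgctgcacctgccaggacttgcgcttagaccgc
Mvd, chr8:122443373-122443672, minus strand: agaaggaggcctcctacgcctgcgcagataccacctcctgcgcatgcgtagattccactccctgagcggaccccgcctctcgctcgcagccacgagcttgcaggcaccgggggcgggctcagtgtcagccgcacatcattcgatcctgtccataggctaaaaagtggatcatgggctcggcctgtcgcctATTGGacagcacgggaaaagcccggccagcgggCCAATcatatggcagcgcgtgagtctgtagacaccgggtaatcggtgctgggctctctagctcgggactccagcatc
Abcg8, chr17:84682871-84683170, plus strand: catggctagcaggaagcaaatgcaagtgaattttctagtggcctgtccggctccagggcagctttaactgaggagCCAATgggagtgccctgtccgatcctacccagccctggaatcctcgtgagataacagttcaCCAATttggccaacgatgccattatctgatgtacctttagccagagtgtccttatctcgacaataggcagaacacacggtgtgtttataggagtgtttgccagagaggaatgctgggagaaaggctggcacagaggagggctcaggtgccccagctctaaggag
CCAAT was found in 22 of the 25 windows (88%) and in 15 of 16 enzyme windows (93.8%), against 42.7% of the windows of 8723 tested genes and 41.1% of all 27025 genes with a window. These enzyme windows include that of *Mvk*, which was not measured. Among members tested, 20 of 22 windows (90.9%) held CCAAT. In the enzymes it often stood close to the start: the matches nearest to it lay 62 bases before the start site in *Lss*, 55 in *Msmo1* and 27 in *Mvd*. The longer motif was found in 1 window of 25, that of *Hmgcs1*, 137 bases before its start site, against 1.44% of all genes. These are matches of letters and describe no binding. *Abcg5* and *Abcg8* start 110 bases apart on opposite strands, and their windows share 209 bases.

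In AKT-NRAS tumours, DDC was not accompanied by a called change in any of the 27 genes. The limma test called 0 of 27, beside 1.94% of all genes (0.511% higher and 1.43% lower), and 3 of 27, all lower, had an unadjusted p under 0.05. Of 16 enzymes 4 were above 0, with a median of -0.24. *Lss* gave 8.78, 9.10, 8.65 and 9.98 without DDC and 9.04, 9.22, 9.69 and 9.67 with it, a difference of 0.28 ± 0.33 (adjusted p = 0.858). *Msmo1* gave 11.13, 10.89, 10.63 and 11.66 against 10.44, 10.95, 10.94 and 11.07, a difference of -0.23 ± 0.27 (adjusted p = 0.862). *Dhcr7* gave 8.83, 9.19, 9.13 and 9.80 against 8.57, 8.64, 9.13 and 9.57 (-0.26 ± 0.27 (adjusted p = 0.817)). The groups overlapped in all 3 enzymes. *Sc5d*, the lathosterol desaturase, had the largest difference of the 16, 7.06, 7.27, 7.36 and 8.02 against 6.36, 6.01, 6.15 and 7.30, at -0.97 ± 0.30 (adjusted p = 0.0965), with overlap. Outside the enzymes, *Insig2* was at -1.08 and not called. Without Tu_AKTNRAS replicate 2, 2 members were called, and without Tu_AKTNRAS_DDC replicate 4, 1 was. Median scaling moved the all-gene median to -0.23 and the split from 55 higher and 154 lower genes to 55 and 466.

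The difference between the DDC effects of the 2 tumour types was tested directly. Subtracting the effect in AKT-CAT tumours from that in AKT-NRAS tumours, all 16 enzymes were below 0 (median -1.03, against -0.02 over all genes), 11 had an unadjusted p under 0.05 and 3 were called: *Msmo1* at -1.82 ± 0.39 (adjusted p = 0.00758), *Dhcr7* at -1.74 ± 0.38 (adjusted p = 0.00911) and *Fdps* at -1.04 ± 0.30 (adjusted p = 0.0492). Those 3 were the only members called (11.1% of 27), beside 3.43% of all genes (1.69% higher and 1.74% lower). *Msmo1* and *Dhcr7* kept their calls with slide as a block, at -2.03 ± 0.46 (adjusted p = 0.0251) and -2.01 ± 0.43 (adjusted p = 0.022), while *Fdps* lost its call there and under 17 of the other alternatives. Median scaling shifted the all-gene median of this difference to -0.52 and the split of calls from 182 higher and 187 lower to 158 and 2634; 15 members were then called, all lower, and 15 of 16 enzymes lay below the shifted median, by a median of -1.24.

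**Figure D3:**
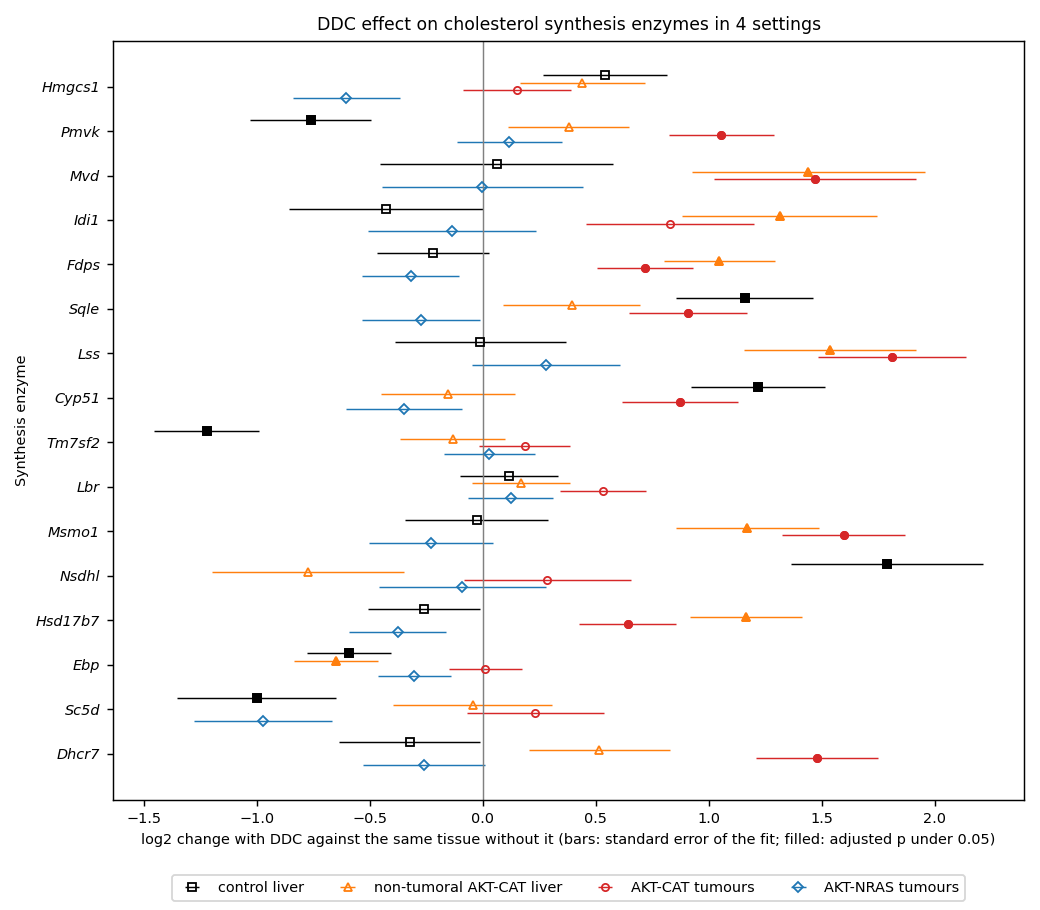
Log2 change with DDC (x axis) of the 16 synthesis enzymes (y axis, in pathway order) in control liver, AKT-CAT non-tumoral liver, AKT-CAT tumours and AKT-NRAS tumours; bars are the standard error of the fit and filled symbols have an adjusted p under 0.05. The AKT-CAT tumours lie right of 0 for all 16 enzymes and the AKT-NRAS tumours for 4.

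With DDC in both, synthesis enzymes were lower in AKT-NRAS than in AKT-CAT tumours nearly throughout. The test called 15 of 16 enzymes lower, *Lbr* (0.04) being the exception, with a median of -1.62; 18 of 27 members were called (66.7%), 16 lower and 2 higher, beside 39.3% of all genes (21% higher and 18.3% lower). *Mvd* was lowest relative to AKT-CAT tumours, at -3.59 ± 0.44 (adjusted p = 9.56e-08), with 6.89, 6.97, 7.98 and 8.55 in the AKT-NRAS tumours and the AKT-CAT values given above. *Hsd17b7* gave 10.83, 10.82, 10.98 and 11.19 against 12.71, 12.95, 13.14 and 13.05, a difference of -2.01 ± 0.21 (adjusted p = 6.3e-09). *Cyp51* gave 9.27, 9.43, 9.39 and 9.35 in the AKT-NRAS tumours and differed by -2.02 ± 0.26 (adjusted p = 1.62e-07). In none of these enzymes did the groups overlap. *Msmo1* (-2.14 ± 0.27 (adjusted p = 1.77e-07)), *Dhcr7* (-2.09 ± 0.27 (adjusted p = 2.03e-07)) and *Pmvk* (-1.996 ± 0.23 (adjusted p = 3.13e-08)) complete the 6 with the largest differences. *Hmgcs1*, the synthase that begins the mevalonate route, was called in this comparison alone of 13, at -1.29 ± 0.24 (adjusted p = 5.42e-05), with 13.32, 13.33, 14.25 and 14.43 against 15.17, 15.13, 15.07 and 15.11. *Srebf2* was also lower, 7.98, 7.74, 8.55 and 8.52 against 9.15, 9.38, 9.32 and 9.27, at -1.09 ± 0.24 (adjusted p = 0.000493). Hepatocyte markers went the other way, with 5 of 9 higher and 1 lower, and summed to 105200 to 119400 in the AKT-NRAS and 93860 to 98570 in the AKT-CAT tumours; their part in the enzyme differences was not tested.

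Without DDC, 7 of 16 enzymes were lower in AKT-NRAS than in AKT-CAT tumours and none higher, with a median of -0.47; 11 of 27 members were called (40.7%), 10 lower and 1 higher, close to the 37.4% of all genes (20.6% higher and 16.9% lower). *Mvd* differed by -2.12 ± 0.44 (adjusted p = 0.000336), with 6.97, 7.78, 7.43 and 8.21 against the 9.93, 9.69, 9.82 and 9.44 of AKT-CAT tumours. *Pmvk* gave 7.72, 7.25, 7.27 and 8.11 and differed by -1.06 ± 0.23 (adjusted p = 0.000549). *Tm7sf2*, a sterol reductase acting after lanosterol, gave 7.33, 7.31, 7.31 and 7.99 against 8.52, 8.71, 8.65 and 8.32 (-1.06 ± 0.20 (adjusted p = 0.000102)). The groups did not overlap in any of the 3. *Abcg8* gave 8.91, 8.57, 8.08 and 8.24 and was lower, at -1.67 ± 0.43 (adjusted p = 0.00246). *Nsdhl*, a decarboxylating sterol dehydrogenase that acts after *Msmo1*, was at -1.04 ± 0.37 (adjusted p = 0.0249), *Hsd17b7* at -0.99 ± 0.21 (adjusted p = 0.000486). With median scaling the all-gene median moved to 0.42 and the split from 2214 higher and 1817 lower genes to 4513 and 946. Of the 7 members then called, 4 were higher and 3 lower; *Pmvk*, *Tm7sf2*, *Nsdhl* and *Hsd17b7* lost their calls, *Mvd* kept its own at -1.41, and 15 of 16 enzymes lay below the shifted median, by a median of -0.49. The DDC comparison of the 2 tumour types moved little under that scaling, with an all-gene median of -0.06 and 15 enzymes called lower. In both comparisons the groups lie on different slides. Without DDC, 3 of 9 hepatocyte markers were higher and 3 lower in AKT-NRAS tumours (66.7% called, beside 37.4% of all genes). They summed to 69190 to 110800 in the AKT-NRAS and 97210 to 119600 in the AKT-CAT tumours. What part they had in the enzyme differences was not tested.

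*Npc2*, which hands cholesterol to NPC1 in the lysosome, was higher in AKT-NRAS tumours in both settings. Its signal was 9.85, 10.14, 10.04 and 9.93 in the AKT-NRAS tumours and 9.05, 9.11, 8.98 and 8.83 in the AKT-CAT tumours, a difference of 0.998 ± 0.15 (adjusted p = 3.66e-06). With DDC the values were 9.85, 9.93, 9.67 and 9.63 and 8.39, 8.38, 8.90 and 8.66, a difference of 1.19 ± 0.15 (adjusted p = 1.12e-07). The lowest AKT-NRAS tumour lay above the highest AKT-CAT tumour in both settings. *Abca1*, the exporter that loads lipoproteins and a gene macrophages also use, gave 5.02, 5.11, 5.20 and 4.63 with DDC in AKT-NRAS tumours and 4.42, 4.40, 4.50 and 4.69 in AKT-CAT tumours; it was called higher (adjusted p = 0.0404), but it was detected in 3 of 4 arrays of the first group and 0 of 4 of the second, so no difference is given, and 8 alternatives ended its call. Of 7 macrophage markers tested, 3 were higher with DDC and none lower (42.9%, beside 39.3% of all genes called), and 3 were higher and 2 lower without it (71.4%, beside 37.4%). Their summed linear signal was 11970 to 15030 in AKT-NRAS tumours and 11290 to 11810 with DDC, against 2756 to 5000 and 1392 to 1871 in the AKT-CAT groups, where *Marco* was undetected with DDC. Of 10 stellate cell and fibroblast markers 3 were higher with DDC (30%, beside the same 39.3%) and 5 without (50%, beside 37.4%). Their part in the *Npc2* and *Abca1* differences was not tested.

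**Figure D4:**
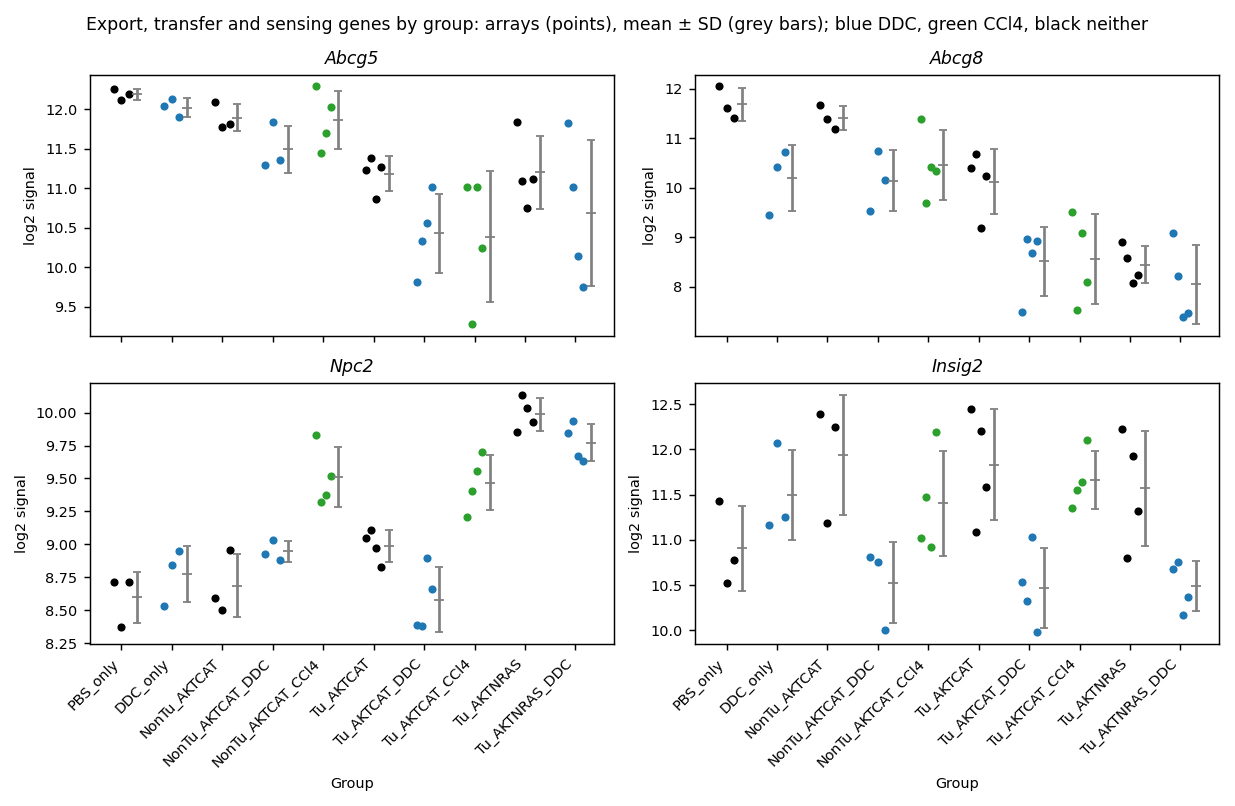
Log2 signal of *Abcg5*, *Abcg8*, *Npc2* and *Insig2* in each of the 10 groups; points are arrays (blue with DDC, green with CCl4, black with neither) and grey bars the mean ± SD. *Abcg8* is highest in PBS_only and lowest in the AKT-NRAS tumours and the AKT-CAT tumours with DDC or CCl4, and *Npc2* is highest in the AKT-NRAS tumours.

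In the non-tumoral liver of AKT-CAT animals synthesis enzymes were also higher with DDC. There 6 of 16 enzymes rose and 1 fell, with a median of 0.42 against 0.05 over all genes; 9 of 27 members were called (33.3%), 6 higher and 3 lower, beside 18.1% of all genes (10.3% higher and 7.78% lower). *Lss* gave 9.27, 9.69 and 9.27 without DDC and 11.75, 10.40 and 10.69 with it, a rise of 1.54 ± 0.38 (adjusted p = 0.00453). *Mvd* gave 9.18, 10.05 and 8.65 against 11.14, 10.86 and 10.21, a rise of 1.44 ± 0.51 (adjusted p = 0.0483). *Idi1*, the isomerase of the isoprenoid unit, gave 6.98, 7.15 and 6.35 against 8.16, 7.54 and 8.72 (1.31 ± 0.43 (adjusted p = 0.0304)). No overlap was seen in these 3, although in *Lss* 1 array with DDC, at 11.75, stood well above the other two. *Msmo1* rose by 1.17 ± 0.32 (adjusted p = 0.00925), *Hsd17b7* by 1.16 ± 0.25 (adjusted p = 0.0011) and *Fdps* by 1.05 ± 0.25 (adjusted p = 0.00298). On the lower side, *Insig2* fell by 1.42 ± 0.39 (adjusted p = 0.0103), from 12.39, 11.18 and 12.25 to 10.81, 10.75 and 10.01, and *Scap* fell by 1.08 ± 0.29 (adjusted p = 0.0085), from 10.13, 9.40 and 9.71 to 8.09, 8.76 and 9.14. *Ebp*, the sterol isomerase, gave 11.90, 11.73 and 12.13 against 11.72, 11.32 and 10.77 and fell by 0.65 ± 0.19 (adjusted p = 0.0134); under median scaling its change was 0.08. That scaling moved the all-gene median to 0.50 and the split from 1111 higher and 837 lower genes to 4144 and 194, with 15 members called, all higher, and 14 of 16 enzymes above the shifted median by a median of 0.74. The 2 groups lie on different slides, and with slide as a block, estimated through the tumour groups, none of the 9 calls held while 13 of 16 enzymes were above 0 (median 0.72). Of the 9 calls, 4 were kept without NonTu_AKTCAT_DDC replicate 1, and 5 without NonTu_AKTCAT replicate 1 or 3. Of hepatocyte markers 3 of 9 fell with DDC (126200 to 134900 against 99460 to 112100, with *Fgb* undetected with DDC and *Tat* in both groups). All 8 sinusoidal endothelial markers were below 0 (median -1.15), with 1 called, and summed to 10750 to 11410 without DDC and 2363 to 6431 with it. The part of either in these changes was not tested.

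In tumour-free liver the pattern was mixed. DDC_only against PBS_only, all 6 arrays on 1 slide, called 10 of 27 members (37%), 3 higher and 7 lower, beside 22.7% of all genes (11.1% higher and 11.6% lower), and the median of the 16 enzymes was -0.12. *Nsdhl* gave 8.05, 6.93 and 6.22 in control liver and 9.49, 8.79 and 8.29 with DDC, a rise of 1.79 ± 0.42 (adjusted p = 0.00245). *Cyp51* gave 10.15, 9.34 and 9.17 against 10.90, 10.67 and 10.74, a rise of 1.22 ± 0.30 (adjusted p = 0.00307), and *Sqle* 10.52, 9.81 and 10.41 against 12.06, 10.96 and 11.20, a rise of 1.16 ± 0.30 (adjusted p = 0.00538). All 3 were without overlap. Among those lower, *Abcg8* gave 12.04, 11.60 and 11.40 against 9.44, 10.41 and 10.73 and fell by 1.49 ± 0.49 (adjusted p = 0.0272). *Tm7sf2* gave 9.56, 9.40 and 8.71 against 7.67, 8.26 and 8.08 and fell by 1.22 ± 0.23 (adjusted p = 0.000232). *Sc5d* gave 7.69, 9.34 and 9.13 against 8.22, 7.52 and 7.42 and fell by 1.0003 ± 0.35 (adjusted p = 0.0377) with overlap. *Scap* fell by 0.94 ± 0.29 (adjusted p = 0.0172), *Pmvk* fell by 0.76 ± 0.27 (adjusted p = 0.0382) and *Stard4*, a soluble sterol carrier, fell by 0.75 ± 0.23 (adjusted p = 0.016); *Ebp* fell by 0.59 ± 0.19 (adjusted p = 0.0197). *Lss* (-0.01) and *Msmo1* (-0.03) showed changes near 0 in the mean, their values spreading from 9.19 to 11.13 and from 11.17 to 12.84 with DDC. In both genes DDC_only replicate 1 was the high array, and without it the median of the enzymes was -0.56. Without PBS_only replicate 2, 5 members were called, and without DDC_only replicate 3, 6 were. Median scaling left the all-gene median at 0.03 but changed the split from 1194 higher and 1246 lower genes to 1214 and 516, and that of the members to 3 and 3. Of stellate cell and fibroblast markers 4 of 10 rose with DDC (6882 to 7542 against 12280 to 14760, with Col1a2 undetected in both groups and Col3a1 in control liver), and of macrophage markers 2 of 7 rose and 1 fell (4223 to 5420 against 7092 to 9798). Their part in the changes was not tested.

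The DDC effect in non-tumoral AKT-CAT liver differed from that in tumour-free liver by test in 9 of 27 members (33.3%), beside 15.2% of all genes (8.66% higher and 6.54% lower). *Lss* (1.55 ± 0.54 (adjusted p = 0.0472)), *Idi1* (1.74 ± 0.61 (adjusted p = 0.0489)), *Hsd17b7* (1.42 ± 0.35 (adjusted p = 0.00682)), *Fdps* (1.27 ± 0.35 (adjusted p = 0.0137)), *Pmvk* (1.14 ± 0.38 (adjusted p = 0.0389)) and *Tm7sf2* (1.09 ± 0.33 (adjusted p = 0.0242)) changed more upward in AKT-CAT liver. *Nsdhl* (-2.56 ± 0.60 (adjusted p = 0.00511)), *Insig2* (-2.01 ± 0.55 (adjusted p = 0.0136)) and *Cyp51* (-1.37 ± 0.42 (adjusted p = 0.0258)) changed more upward in tumour-free liver. For *Nsdhl* this depends on the probe. Besides the probe used, others were at -2.36 and -2.92, but a further probe was called the other way, at 1.54 (limma adjusted p = 0.00269). With slide as a block none of the 9 was called, and the median of the 16 enzymes was 0.87 against 1.02 without it. Without PBS_only replicate 2 or 3, NonTu_AKTCAT_DDC replicate 1 or NonTu_AKTCAT replicate 1, 5 were called, and without NonTu_AKTCAT replicate 2, 4 were. Median scaling moved the all-gene median of this difference to 0.37 and its split from 932 upward and 704 downward genes to 2137 and 305. Between AKT-CAT tumours and their non-tumoral liver, no member's DDC effect differed by the limma test, with 0 of 27 called beside 3.46% of all genes (0.938% higher and 2.52% lower). An unadjusted p under 0.05 was found in 4, 3 of them more upward in tumours, and 1 was called without NonTu_AKTCAT_DDC replicate 1. Median scaling moved that all-gene median to -0.22, with 15 upward and 398 downward genes in place of 101 and 271.

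Comparing tumours with non-tumoral liver within AKT-CAT animals, *Abcg8* fell in tumours under both agents and *Abcg5* with CCl4. With CCl4, all 8 arrays on 1 slide, *Abcg8* gave 11.39, 9.69, 10.42 and 10.34 in non-tumoral liver and 9.51, 7.53, 9.09 and 8.10 in tumours and fell by 1.90 ± 0.43 (adjusted p = 0.00206). *Abcg5* gave 12.29, 11.45, 11.70 and 12.03 against 11.02, 9.28, 11.02 and 10.24 and fell by 1.48 ± 0.34 (adjusted p = 0.00265). In neither gene did the groups overlap. *Stard4* fell by 0.64 ± 0.20 (adjusted p = 0.0234) and *Nsdhl* rose by 1.37 ± 0.37 (adjusted p = 0.00907), from 7.61, 8.60, 7.20 and 8.74 to 9.55, 9.32, 9.41 and 9.36; these 4 genes were the called members (14.8%), beside 15.2% of all genes (7.84% higher and 7.4% lower). Under median scaling 4 members were called higher, all enzymes, and 2 lower, and without NonTu_AKTCAT_CCl4 replicate 3 the calls of *Nsdhl* and *Stard4* were lost. With DDC, *Abcg8* gave 9.53, 10.75 and 10.15 against 7.49, 8.97, 8.68 and 8.93 and fell by 1.63 ± 0.46 (adjusted p = 0.0335), while *Nsdhl* rose by 1.60 ± 0.40 (adjusted p = 0.0172), *Cyp51* by 1.08 ± 0.28 (adjusted p = 0.0203), *Sqle* by 0.99 ± 0.28 (adjusted p = 0.0349), *Dhcr7* by 0.95 ± 0.29 (adjusted p = 0.0483) and *Pmvk* by 0.82 ± 0.25 (adjusted p = 0.0485). That made 6 of 27 members called (22.2%), 5 higher and 1 lower, beside 5.77% of all genes (2.48% higher and 3.29% lower). Without either agent 2 of 27 were called (7.41%), beside 11.2% of all genes (5.93% higher and 5.27% lower): *Fdps* rose by 0.73 ± 0.23 (adjusted p = 0.0357), from 12.69, 12.85 and 12.94 to 13.27, 13.73, 13.92 and 13.30, and *Scap* fell by 1.07 ± 0.27 (adjusted p = 0.00879), from 10.13, 9.40 and 9.71 to 8.79, 9.06, 7.97 and 8.91. *Abcg8* there gave 11.66, 11.38 and 11.18 against 10.39, 10.68, 9.18 and 10.23, at -1.29 ± 0.46 (adjusted p = 0.0673), and *Abcg5* was at -0.71 ± 0.37 (adjusted p = 0.233); neither was called.

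The last 2 comparisons are the less firm ones. With slide as a block, or within the slide that holds both tissues, no member was called in either. Leaving out Tu_AKTCAT_DDC replicate 1, NonTu_AKTCAT_DDC replicate 2 or NonTu_AKTCAT_DDC replicate 3 left 0 of the 6 calls with DDC, Tu_AKTCAT_DDC replicate 2 or 3 left 2 and replicate 4 left 3. Leaving out Tu_AKTCAT replicate 3 or NonTu_AKTCAT replicate 1 left 0 of the 2 without an agent, and Tu_AKTCAT replicate 2 or NonTu_AKTCAT replicate 2 or 3 left 1. Under median scaling the all-gene median moved to 0.29 without an agent and to 0.27 with CCl4, with splits of 1688 higher and 73 lower in place of 638 and 567, and of 2266 and 262 in place of 844 and 797. With DDC it stayed at 0.04, with 232 higher and 131 lower in place of 267 and 354, and of the members 2 were called higher and 1 lower; without an agent 3 were called higher and none lower. Markers of several cell types were lower in tumours in the same comparisons, while those of cholangiocytes, the bile duct cells, were not. All 5 tested cholangiocyte markers were above 0 without an agent (median 0.94) and with DDC (median 0.20), with 0 called. With CCl4 1 of the 5 was called higher, and 3 were below 0. Krt19 and Cd24a were undetected in non-tumoral liver without an agent and with DDC. The part of any of these cell types in the lower transporters was not tested. With CCl4, 5 of 9 hepatocyte, 5 of 7 macrophage, 4 of 8 sinusoidal endothelial and 2 of 10 stellate cell and fibroblast markers were called lower and none higher. Their summed signals were 102900 to 126500, 4113 to 9735, 3437 to 10930 and 9904 to 11620 in non-tumoral liver against 70820 to 106900, 2522 to 4886, 883.6 to 4643 and 4963 to 7623 in tumours, with Kdr undetected in both groups and *Tat* in tumours. With DDC, 1 of 9, 4 of 7, 3 of 8 and 3 of 10 of the same lists were called lower and none higher. The sums there were 99460 to 112100, 3394 to 5107, 2363 to 6431 and 5810 to 8075 against 93860 to 98570, 1392 to 1871, 599.4 to 1869 and 2419 to 5784, with *Tat* and Col1a2 undetected in both groups, *Fgb* in non-tumoral liver, and *Marco* and Kdr in tumours. Without an agent 3 of 9 hepatocyte and 2 of 10 stellate cell and fibroblast markers were called lower, and none of the macrophage or endothelial ones.

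Under CCl4, the called share of the cholesterol genes lay near that of all genes in both AKT-CAT tissues. In non-tumoral liver 5 of 27 were called (18.5%), 4 higher and 1 lower, beside 19% of all genes (10.7% higher and 8.21% lower). *Idi1* gave 6.98, 7.15 and 6.35 without CCl4 and 9.06, 8.55, 9.98 and 9.17 with it, a rise of 2.36 ± 0.40 (adjusted p = 0.000104), or 5.14-fold. *Sc5d* gave 7.87, 7.002 and 8.25 against 8.82, 8.70, 8.89 and 8.90, a rise of 1.12 ± 0.33 (adjusted p = 0.0155). *Npc2* gave 8.60, 8.51 and 8.96 against 9.83, 9.32, 9.37 and 9.52, a rise of 0.82 ± 0.16 (adjusted p = 0.000472). These 3 genes showed no overlap between the groups. *Insig1* rose by 1.07 ± 0.26 (adjusted p = 0.00383), from 10.74, 11.05 and 10.42 to 11.62, 11.54, 12.33 and 11.76, by its brightest probe, but the mean of its 3 tested probes gave -0.01. *Srebf2* gave 9.21, 9.60 and 8.77 against 8.52, 8.33, 8.97 and 7.93 and fell by 0.76 ± 0.26 (adjusted p = 0.0394), with overlap. In tumours 3 of 27 were called (11.1%), 2 higher and 1 lower, beside 8.29% of all genes (5.11% higher and 3.18% lower): *Idi1* rose by 1.49 ± 0.37 (adjusted p = 0.0117), from 6.96, 6.83, 7.05 and 7.24 to 8.77, 8.15, 8.32 and 8.79, *Npc2* rose by 0.48 ± 0.15 (adjusted p = 0.0416), from 9.05, 9.11, 8.98 and 8.83 to 9.21, 9.41, 9.56 and 9.70, and *Abcg8* fell by 1.56 ± 0.43 (adjusted p = 0.0209). Macrophage markers in non-tumoral liver were at 5531 to 9338 without CCl4 and 4113 to 9735 with it (1 of 7 higher, 0 lower). No member's CCl4 effect differed between tumours and non-tumoral liver by the limma test, 0 of 27 being called or at an unadjusted p under 0.05, beside 0.139% of all genes (0.0557% higher and 0.0836% lower). The CCl4 groups have a slide of their own, so slide and CCl4 cannot be told apart in the 2 comparisons with AKT-CAT tissue. Without NonTu_AKTCAT replicate 2, 3 members were called in non-tumoral liver; without Tu_AKTCAT replicate 1, 2 or 4 or Tu_AKTCAT_CCl4 replicate 2 or 4, 1 was in tumours. Median scaling moved their all-gene medians to 0.19 in non-tumoral liver (1165 higher and 153 lower in place of 1157 and 884) and 0.21 in tumours (915 and 139 in place of 550 and 342); the members called were then 6 higher and 0 lower, and 3 higher and 0 lower.

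Against liver of PBS-treated mice, non-tumoral AKT-CAT liver had 5 of 27 members called (18.5%), 3 higher and 2 lower, beside 15.1% of all genes (7.39% higher and 7.66% lower). *Nsdhl* rose by 1.47 ± 0.42 (adjusted p = 0.0181), *Sqle* by 1.04 ± 0.30 (adjusted p = 0.0187) and *Cyp51* by 0.90 ± 0.30 (adjusted p = 0.0388), the 3 enzymes that also rose with DDC alone; the comparisons share the PBS_only arrays. *Pmvk* fell by 1.17 ± 0.27 (adjusted p = 0.00395) and *Sc5d* fell by 1.01 ± 0.35 (adjusted p = 0.0484). None of the 5 was called with slide as a block, or in a fit of these 6 arrays alone. Without PBS_only replicate 2 or NonTu_AKTCAT replicate 1 only *Pmvk* of the 5 stayed called, without PBS_only replicate 3, *Pmvk* and *Sqle*, without NonTu_AKTCAT replicate 2, *Pmvk* and *Nsdhl*, and without NonTu_AKTCAT replicate 3, the call of *Nsdhl* was lost. Median scaling moved the all-gene median to -0.23 (133 higher and 1680 lower genes in place of 796 and 825), and with it no member was called higher, *Nsdhl*, *Sqle* and *Cyp51* losing their calls, and 3 were called lower. Of stellate cell and fibroblast markers 5 of 10 were higher in the AKT-CAT liver (9665 to 11840 against 6882 to 7542); their part was not tested.

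AKT-NRAS tumours against PBS_only liver called 15 of 27 members (55.6%), 4 higher and 11 lower, beside 50% of all genes (26.2% higher and 23.8% lower). *Abcg8* was lower, at -3.23 ± 0.46 (adjusted p = 7.49e-07), 8.91, 8.57, 8.08 and 8.24 against 12.04, 11.60 and 11.40, the largest difference of any member in this comparison. *Abcg5* gave 11.84, 11.09, 10.75 and 11.12 against 12.26, 12.12 and 12.19 and was lower, at -0.99 ± 0.37 (adjusted p = 0.0257). *Pmvk* (-2.09 ± 0.25 (adjusted p = 3.54e-08)), *Tm7sf2* (-1.74 ± 0.22 (adjusted p = 7.62e-08)), *Scap* (-1.55 ± 0.27 (adjusted p = 1.66e-05)) and *Sc5d* (-1.29 ± 0.33 (adjusted p = 0.00149)) were lower as well. On the other side stood *Npc2* (1.39 ± 0.16 (adjusted p = 1.8e-08)), *Sqle* (1.38 ± 0.28 (adjusted p = 0.000144)), *Nsdhl* (0.97 ± 0.40 (adjusted p = 0.0423)) and *Insig1* (0.83 ± 0.26 (adjusted p = 0.00884)). *Sqle* gave 11.36, 11.83, 11.36 and 11.94 against 10.52, 9.81 and 10.41, without overlap, while 6 of 16 enzymes were lower and 2 higher; under median scaling this balance turned, with 3 enzymes lower and 5 higher (5 members lower and 7 higher). *Insig1* gave 10.83, 10.89, 10.98 and 11.77 against 9.90, 10.24 and 10.74, but the mean of its 3 tested probes was at -0.08. The tumours and the control liver lie on different slides, and median scaling moved the all-gene median to 0.39 (4435 higher and 1356 lower genes in place of 2821 and 2566). Without PBS_only replicate 3 or Tu_AKTNRAS replicate 3, 9 members were called. Hepatocyte markers summed to 69190 to 110800 in the tumours and 111200 to 123900 in control liver, 4 of 9 being lower; of stellate cell and fibroblast markers 6 of 10 were higher and 2 lower (10700 to 16220 against 6882 to 7542). Their part in these differences was not tested.

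A few members were seldom called. *Scarb1*, the receptor that takes up cholesterol from high-density lipoprotein, was called in none of the 13 comparisons of 2 groups; it gave 7.01, 6.09 and 6.31 in control liver, 6.50, 5.79, 5.76 and 6.39 in AKT-CAT tumours, 6.54, 6.57, 6.50 and 6.24 with DDC and 5.76, 6.87, 6.27 and 6.16 in AKT-NRAS tumours. *Lbr*, the lamin B receptor that doubles as a sterol reductase, was likewise called in none. Under median scaling both were higher in AKT-NRAS than in AKT-CAT tumours without DDC, at 0.74 and 1.05, beside that comparison's all-gene median of 0.42. *Abcg1*, an exporter of the macrophage and hepatocyte, was called once, lower in AKT-NRAS tumours than in control liver, at -0.59 ± 0.24 (adjusted p = 0.0367). *Abca1* was detected in 6 of 36 arrays, 5 of them AKT-NRAS tumours, and elsewhere its signal of 4.40 to 4.998 is not above background. *Pmvk*, *Nsdhl* and *Abcg8* were called most often, in 7 of the 13 comparisons each.

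Probes of the same gene did not always move together. *Nsdhl* has 4 probes, of which 3 rose with DDC in tumour-free liver (1.60, 1.79 and 1.93, all called), while the fourth was at -0.25; in non-tumoral AKT-CAT liver the same 3 gave -0.76 to -0.99 with DDC, not called, while the fourth rose by 1.29. In AKT-CAT tumours with DDC against those without, the fourth probe rose by 0.80 (adjusted p = 0.0117) and the others were at 0.02 to 0.29. In tumours against non-tumoral AKT-CAT liver it was at 0.008 with DDC and 0.07 with CCl4, where the other 3 were called higher. In AKT-NRAS against AKT-CAT tumours without DDC only the used *Nsdhl* probe was called, the others being at -0.67, -0.29 and -0.43. *Insig1* has 4 probes, 1 of them undetected on every array and not tested, and the 2 dimmer tested ones were lower in AKT-NRAS than in AKT-CAT tumours with DDC, at -1.40 and -1.39, where the brightest was at -0.15. For *Sqle* the second probe gave 2.39 with DDC in tumour-free liver and -1.22 in non-tumoral AKT-CAT liver, against 1.16 and 0.39 for the probe used. In AKT-CAT tumours with DDC against those without, it gave 0.48 (adjusted p = 0.622), and the mean of both *Sqle* probes, 0.69 (adjusted p = 0.215), was not called. The 3 *Insig2* probes agreed in direction in AKT-CAT tissue with DDC: -1.36, -2.41 and -1.46 in tumours and -1.42, -3.91 and -1.08 in non-tumoral liver, all 6 called. In AKT-NRAS tumours with DDC they were also below 0, at -1.08, -1.31 and -0.81, none called. The difference in DDC effect between the tumour types was at 0.28, 1.10 and 0.66, again with none called. The *Nsdhl*, *Insig1* and *Sqle* statements above hold for the brightest probe of each.

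**Figure D5:**
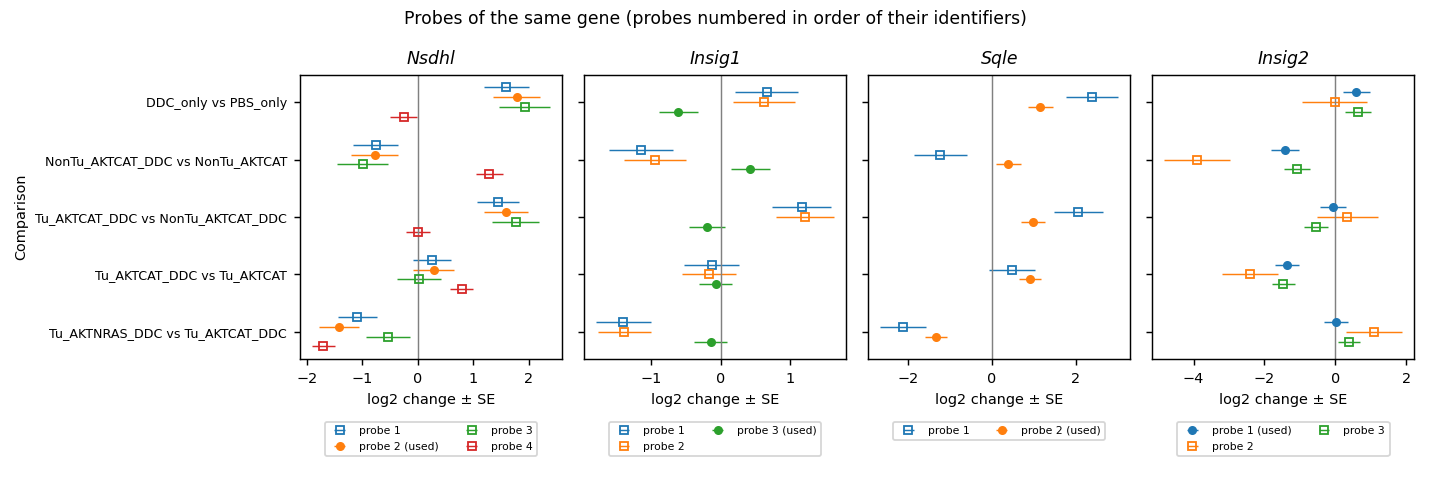
Log2 change ± standard error (x axis) of every tested probe of *Nsdhl*, *Insig1*, *Sqle* and *Insig2* in 5 comparisons (y axis); filled circles are the probe used for the gene. The fourth *Nsdhl* probe stands apart from the others of its gene except in AKT-NRAS against AKT-CAT tumours with DDC. The used *Insig1* probe stands apart except in AKT-CAT tumours with DDC against those without. The 3 *Insig2* probes lie below 0 in both AKT-CAT tissues with DDC against the same tissue without it. They lie on both sides of 0 in tumours against non-tumoral liver with DDC.

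The neighbouring pathways were read from lists of genes that are not members. Bile acid synthesis, the route by which the liver disposes of cholesterol, had 5 measured genes. Of these, 4 were lower and 1 higher in AKT-NRAS than in AKT-CAT tumours, both without DDC (median -1.99) and with it (median -2.76). That is 100% called in both settings, beside 37.4% of all genes without DDC and 39.3% with it. *Cyp7a1*, its rate-limiting enzyme, was lower, at -5.91 ± 0.43 (adjusted p = 5.03e-12) without DDC and at -7.44 ± 0.43 (adjusted p = 1.25e-14) with it. *Cyp8b1* was lower, at -4.45 ± 0.76 (adjusted p = 2.75e-05) without DDC and -6.54 ± 0.76 (adjusted p = 3.28e-08) with it, and it was the 1 called gene of the 4 lists with DDC in AKT-NRAS tumours, at -3.19 ± 0.76 (adjusted p = 0.0211). *Cyp39a1* was the higher gene, by 1.16 ± 0.43 (adjusted p = 0.0337) without DDC and at least 4.16-fold with DDC, where it was undetected in all 4 AKT-CAT tumours (adjusted p = 8.76e-05). In tumour-free liver with DDC *Cyp8b1* fell by 3.41 ± 0.88 (adjusted p = 0.00514) and *Cyp7b1* fell by 2.23 ± 0.33 (adjusted p = 7.14e-06).

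The other 3 lists are given by their counts. With DDC in AKT-CAT tumours, 0 of 7 sterol sensing partners, 1 of 5 genes of acetyl-CoA supply and the isoprenoid branch (*Dhdds*, 0.69 ± 0.23 (adjusted p = 0.041)) and 1 of 5 lipoprotein receptors and ester hydrolases (*Lrp1*, -0.95 ± 0.22 (adjusted p = 0.00473)) were called. These are 0%, 20% and 20%, beside 13.3% of all genes. In AKT-NRAS against AKT-CAT tumours with DDC, *Acss2*, which makes acetyl-CoA from acetate, was lower, at -2.59 ± 0.33 (adjusted p = 1.52e-07), *Nr1h3*, the oxysterol receptor LXR-alpha, at -1.37 ± 0.17 (adjusted p = 1.16e-07), and *Mbtps1*, the first protease that cuts SREBP, at -1.23 ± 0.20 (adjusted p = 6.16e-06). In that comparison 1 of 7 sensing partners was higher and 2 lower, 1 of 5 supply genes higher and 1 lower, and 3 of 5 receptor and hydrolase genes higher and 2 lower, or 42.9%, 40% and 100% called beside 39.3% of all genes. *Mbtps1* was lower with CCl4 too, at -1.54 ± 0.21 (adjusted p = 6.55e-06) in non-tumoral liver and -0.88 ± 0.20 (adjusted p = 0.00485) in tumours, where *Srebf1*, the SREBP gene tied mainly to fatty acids, was higher by 0.90 ± 0.25 (adjusted p = 0.0114) and 0.75 ± 0.24 (adjusted p = 0.0438). *Stard5*, a sterol carrier, was lower in tumours than in non-tumoral liver without an agent (-0.83 ± 0.22 (adjusted p = 0.0118)), with DDC (-0.89 ± 0.22 (adjusted p = 0.0164)) and with CCl4 (-1.01 ± 0.20 (adjusted p = 0.000705)).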

How the data were processed

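The members and the other gene lists were chosen with earlier results of these data known. RNA was isolated with a QIAGEN RNeasy mini kit and biotinylated cRNA made with an Ambion MessageAmp kit, per the labels' protocols; GenomeStudio is named in the submitters' processing notes. The authors deposited probe intensity values that were not normalized, with detection p-values, and a second table of processed intensity values whose normalization is not given in the sources used here (its sorted values are nearly the same on all arrays, it holds values below 0, and each array ranks its probes as in the first table). From the deposited intensity values, limma 3.58.1 (R 4.3.3) corrected background from the detection p-values with neqc (offset 16), quantile-normalized and took log2. Probes with detection p under 0.05 in at least 3 arrays that named 1 gene were kept (14754 of 25697; 23978 name 1 gene and 1719 none), and the brightest stood for its gene, 2834 genes having more than 1. One model over 10 groups and 36 arrays gave the contrasts (lmFit, eBayes, two-sided, Benjamini-Hochberg over 10765 genes). On data simulated for Tu_AKTCAT_DDC against Tu_AKTCAT the fit called 77.8% of 90 genes changed by 1 and 97.3% of 110 changed by 2 (absolute log2), with 9 of 10765 called falsely. For each comparison up to 6 called members per direction are named with their statistics, and values per array of the genes called most often are given in sentences for the groups compared and for all 36 arrays in the heatmap. A probe undetected on every array of a group is given as "at least" against the lowest signal detected. The alternatives tried were median scaling, no background step with a floor of 16, no detection filter, the mean of a gene's probes, only the compared groups, slide as a block, within slide, the replicate number as a block, the processed table and leaving out each array. The number of arrays limits the precision. Figures were drawn with Python 3.11.15 and matplotlib 3.10.9.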

Additional observations from a re-analysis of the deposited data

Results flagged for a closer look

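Dixon's criterion was applied to 120 combinations of a gene with a group of 4 arrays. Chance meets it in about 1 combination in 20, and the combinations share arrays. In 4 of them 1 array stood far from the other 3. These were *Insig1* in Tu_AKTNRAS replicate 4 (11.77 on the log2 scale), *Pmvk* in Tu_AKTCAT_CCl4 replicate 2 (8.43), *Ebp* in Tu_AKTNRAS_DDC replicate 4 (10.94) and *Hsd17b7* in NonTu_AKTCAT_CCl4 replicate 3 (12.34).

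The DDC effect differed by the limma test between AKT-NRAS and AKT-CAT tumours in *Msmo1* (-1.82), *Dhcr7* (-1.74) and *Fdps* (-1.04). Between non-tumoral AKT-CAT liver and tumour-free liver it differed in *Idi1* (1.74), *Lss* (1.55), *Hsd17b7* (1.42), *Fdps* (1.27), *Pmvk* (1.14) and *Tm7sf2* (1.09), and on the other side in *Nsdhl* (-2.56), *Insig2* (-2.01) and *Cyp51* (-1.37). The fourth *Nsdhl* probe was called in the opposite direction there, at 1.54.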

How the results depend on the processing

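Of 89 calls named, the direction and the call were kept in 84 with the mean of probes, 82 with the replicate number as a block, 81 without the background step, 80 with the processed table, 75 without the detection filter, 63 with median scaling and 60 with only the compared groups fitted. Slide as a block could be fitted for 56, of which 19 kept the call. These 19 include all named calls of DDC_only against PBS_only and of tumour against non-tumoral liver with CCl4. Each of those comparisons lies on 1 slide, where the block cannot change the estimate. The others kept were *Lss*, *Msmo1*, *Dhcr7* and *Pmvk* with DDC in AKT-CAT tumours, and *Msmo1* and *Dhcr7* in the difference between tumour types. In comparisons that span several slides, 17 calls could be fitted within 1 slide and none was kept. The sign changed in 3 calls, *Ebp* with DDC in non-tumoral liver (0.0763 under median scaling) and *Insig1* with CCl4 in non-tumoral liver (-0.0103) and in AKT-NRAS tumours against PBS_only (-0.0841), both by the mean of probes.

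Counts of members called that moved by over 1.5 times were as follows. The reduced fits hold fewer arrays, and the cause of the moves was not tested. Median scaling gave 6 for DDC_only against PBS_only (10 as reported), 3 for NonTu_AKTCAT against PBS_only (5), 3 for tumour against non-tumoral liver with DDC (6), 15 for DDC in non-tumoral liver (9), 1 for DDC in AKT-NRAS tumours (0), 7 for AKT-NRAS against AKT-CAT tumours (11) and 15 for the difference of DDC effects between tumour types (3). No detection filter gave 3 for NonTu_AKTCAT against PBS_only and 3 for tumour against non-tumoral liver with DDC. Fitting only the compared groups gave 5 for DDC_only against PBS_only, 0 for NonTu_AKTCAT against PBS_only, 0 for tumour against non-tumoral liver without an agent, 2 for CCl4 in non-tumoral liver (5), 1 for CCl4 in tumours (3), 6 for the difference between tumour types and 3 for that between non-tumoral and tumour-free liver (9). Slide as a block gave 4 for DDC in AKT-CAT tumours (12) and 0 for NonTu_AKTCAT against PBS_only, for tumour against non-tumoral liver without an agent and with DDC, for DDC in non-tumoral liver and for the difference between non-tumoral and tumour-free liver. Within 1 slide the counts were 0 for tumour against non-tumoral liver without an agent and with DDC, and 0 for DDC in AKT-CAT tumours.

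Leaving out 1 array at a time gave 5 to 7 for DDC_only against PBS_only, 1 to 6 for NonTu_AKTCAT against PBS_only, 0 to 3, 0 to 7 and 3 to 5 for tumour against non-tumoral liver without an agent, with DDC and with CCl4, 4 to 9 and 3 to 6 for DDC and CCl4 in non-tumoral liver, 6 to 11 and 1 to 3 for DDC and CCl4 in AKT-CAT tumours, and 0 to 2 for DDC in AKT-NRAS tumours. It gave 9 to 12 and 17 to 18 for AKT-NRAS against AKT-CAT tumours without and with DDC, 9 to 14 for AKT-NRAS tumours against PBS_only, 2 to 4 for the difference between tumour types, 0 to 1 for that between AKT-CAT tumours and non-tumoral liver, 0 to 0 for the difference in CCl4 effect and 4 to 11 for that between non-tumoral and tumour-free liver. Same-numbered arrays of compared groups correlated at -0.291 to 0.346 in their deviations. Differently numbered arrays were not correlated for reference, so these values cannot decide whether equal numbers mark paired arrays. The replicate number as a block left 1 of 2 calls for tumour against non-tumoral liver without an agent, and 7 of the 89 named calls were lost. Signals near 5 on the log2 scale, where the dimmest detected probe lies (4.96 to 5.54 by array), carry no measured level.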
